A study of Mus musculus with 28 samples.

Results

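The quantity examined here was the run effect on the TRAP to lysate ratio of each gene within each mouse. TRAP (translating ribosome affinity purification) pulls down tagged ribosomes with the mRNA they carry, and the total lysate is the tissue homogenate before the pull-down. The mice carried Cx3CR1-Cre with the TRAPfl allele, so that ribosomes were tagged in cells with Cx3cr1 promoter activity, which in brain are microglia and some macrophages. Motor cortex was taken from 7 mice kept in their home cage and 7 mice that had exercised on a rotarod for 1 h. All 14 mice carried the same genotype, and the home cage mice were the control for running. Each condition held 4 females and 3 males by label, with 4 mice from cohort 1 and 3 from cohort 2. Each mouse gave 1 TRAP library and 1 lysate library. Of 24391 genes in the table, 12728 had a mean of at least 1 CPM (counts scaled to library size; here by library totals, while the levels given below also carry TMM scaling) in both fractions, and these were the genes compared.

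The ratio is log2 CPM in TRAP minus log2 CPM in lysate of the same mouse. A run effect on the ratio above 0 means that the change after running was larger, or more upward, in TRAP than in lysate. A ratio near 0 together with a change in both fractions means a shared change. A single mouse cortex contains neurons, glia and vessels besides microglia, and in bulk libraries such as these a change in the number of cells of a type and a change in RNA per cell cannot be told apart. Exercise and arousal raise circulating glucocorticoids, whose receptor activates genes such as Tsc22d3, Fkbp5 and Ddit4 in many cell types. Neuronal activity switches on immediate early genes, a set that includes transcription factors of the Fos, Egr and Atf families, followed by effectors such as Gem, Gadd45b and Arl4d.

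Library totals ran from 70090518 to 241381845 counts. Homeostatic microglia genes, 24 of 24 detected, had a median summed level of 142087 CPM in home cage TRAP and 3799 CPM in home cage lysate, and of 131800 and 4167 CPM after running. Markers of other cell types were also read in TRAP. In home cage mice pan-neuronal markers had medians of 4518 CPM in TRAP and 17009.5 CPM in lysate. Astrocyte markers were at 2284 and 4588 CPM, and endothelial markers at 315 and 100 CPM. Whether a change in TRAP lay on microglial ribosomes was not tested. The Cre driver Cx3cr1 stood 6.86 higher in TRAP than in lysate on the log2 scale over the 14 mice, and its ratio differed between run and home cage by 0.01 ± 0.12 (SE). In cohort 2 the run mice labelled Male1 and Female2 (2 mice) had Y-linked levels that went against the sex label in both libraries (15.4 to 43.5 CPM in the mouse labelled Female2 and 0 in the mouse labelled Male1). Results that rest on them are given with and without them, and sex itself was not compared.

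No gene passed the test for a run effect on the ratio, 0% of 12728 at an adjusted p under 0.05 (edgeR quasi-likelihood test, Benjamini-Hochberg). At an unadjusted p under 0.05 there were 518 genes (4.07%), against 636 expected if no gene differed. Of these, 228 (1.79%) were higher and 290 (2.28%) were lower after running. The difference was above 0 in 44.9% of all genes, with a median of -0.03. The median half-width of a gene's 95% interval was 0.46 on the log2 scale. For 10298 genes (80.9%) the whole interval lay within 1 of 0, which bounds the difference in response between the fractions at under 2-fold either way for those genes. The ratios of run and home cage mice did not overlap at all in 7 genes (0.055%), among them Tsc22d3, Fam43a and Srl. With 7 against 7 mice, some such genes are expected by chance alone among 12728, so that lack of overlap is a description. limma on the per-mouse log2 ratios also called 0 genes, with 563 at an unadjusted p under 0.05. DESeq2 called 4, namely Tsc22d3, Fam43a, Hivep1 and Atf3, of which Atf3 met the minimum level in lysate only through the run group, where it was high.

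Tsc22d3 had the smallest p of all genes for the ratio. It encodes GILZ, a leucine zipper protein induced directly by the glucocorticoid receptor, and lies on the X chromosome (GRCm38, 140539528 to 140600659, minus strand). In TRAP it ran from 175 through a median of 244 to 406 CPM in home cage mice and from 386 through 616 to 1094 CPM in run mice. In lysate it ran from 152 through 186 to 404 CPM and from 220 through 367 to 565 CPM. Levels were thus higher after running in both fractions, with the highest home cage mouse above the lowest run mouse in each. The within-mouse log2 ratio removed that overlap: it lay between -0.18 and 0.74 in home cage mice and between 0.75 and 1.17 in run mice. The ratio was higher after running by 0.79 ± 0.13 (SE, 95% interval 0.52 to 1.06) at an adjusted p of 0.0918, above the threshold. It was 1.01 in cohort 1 alone (adjusted p = 0.0351), 0.52 in cohort 2 alone (adjusted p = 0.9999), and 0.91 without the 2 mice of doubtful label (adjusted p = 0.0250). Leaving out the home cage male or the run male of cohort 2 also brought it under the threshold, at adjusted p of 0.0138 and 0.0279.

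**Figure D1:**
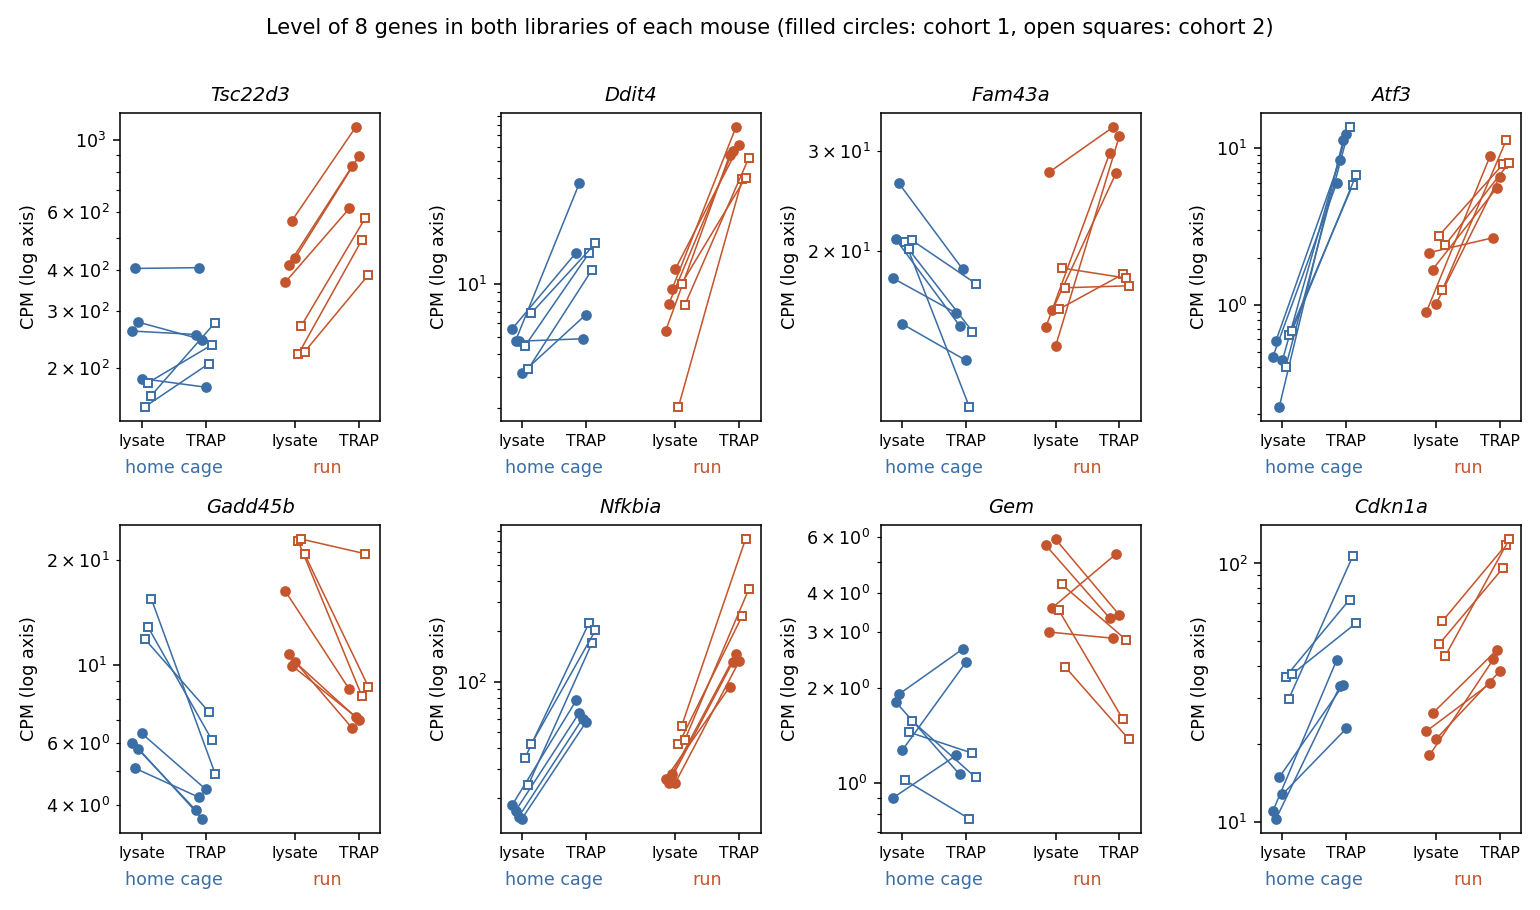
CPM of 8 genes in the lysate and TRAP library of each of 14 mice, on log axes, with a line joining both libraries of 1 mouse, home cage in blue and run in red, cohort 1 as filled circles and cohort 2 as open squares. Lines of Tsc22d3 are flatter in home cage mice (log2 ratio -0.18 to 0.74) than in run mice (0.75 to 1.17), while those of Atf3 are steeper in home cage mice, whose lysate levels (0.223 to 0.681 CPM) lie below those of run mice (0.894 to 2.76 CPM).

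Of the 5 genes with the smallest p among higher ratios, the other 4 did not pass the test either. Fam43a, a gene of unsettled function (chromosome 16, 30599723 to 30602797, plus strand), ran from 10.6 through a median of 14.7 to 18.5 CPM in home cage TRAP and from 17.3 through 27.5 to 33.1 CPM in run TRAP. Its lysate levels, 14.8 to 26.3 CPM in home cage and 13.5 to 27.5 CPM in run mice, covered much the same span. The ratios did not overlap, with -0.97 to -0.21 in home cage and -0.06 to 1.24 in run mice, and differed by 0.95 ± 0.20 (SE, adjusted p = 0.759). Hivep1, a zinc finger protein that binds enhancers of immune genes, had ratios of -1.95 to -0.39 in home cage and -1.30 to 0.40 in run mice, a difference of 0.89 ± 0.19. All run mice of cohort 1 were above all home cage mice of cohort 1 for Hivep1, and in cohort 2 the lowest run mouse was just under the highest home cage mouse at -1.29. Ndst3, a heparan sulfate sulfotransferase that neurons express, was at a median of 2.1 CPM in home cage TRAP and 5.2 CPM in run TRAP beside 12.6 and 10.3 CPM in lysate. Its ratio difference of 1.14 ± 0.29 rested on a low TRAP level with wide overlap between the groups. Apold1, an early response gene of vascular endothelium (chromosome 6, 134981718 to 134986836, plus strand), is also among the genes that rose on the mean of both fractions, given below. In TRAP it was at 5.72 to 12.7 CPM in home cage and 17.1 to 23.1 CPM in run mice, and in lysate at 4.05 to 6.06 CPM and 6.27 to 9.03 CPM, so that the groups were apart in both fractions. Its ratio was higher by 0.85 ± 0.21, with the run mice above the home cage mice of their own cohort in both cohorts.

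Among lower ratios the smallest p belonged to Pdgfb, Atf3, Cebpa, Srl and Bcl2l1, all at an adjusted p of 0.997. In Pdgfb, Atf3, Cebpa and Bcl2l1 the larger difference was in lysate, at 0.53 ± 0.12, 1.80 ± 0.31, 0.74 ± 0.22 and 0.30 ± 0.09 on the log2 scale, against -0.18 ± 0.14, -0.36 ± 0.28, 0.10 ± 0.13 and -0.23 ± 0.12 in TRAP. Atf3, a stress-induced transcription factor of the CREB family (chromosome 1, 191170296 to 191218039, minus strand), ran from 0.223 through 0.466 to 0.681 CPM in home cage lysate and from 0.894 through 1.68 to 2.76 CPM in run lysate. These lysate groups did not overlap, and the rise of 1.80 ± 0.31 passed the test within lysate (adjusted p = 0.0196). Without the 2 mice of doubtful label it was 1.89 at an adjusted p of 0.0881. By library totals, the scale of the filter, Atf3 lysate averaged 0.582 CPM in home cage and 2.04 CPM in run mice, so that it entered the comparison only through the run group, where it was high. In TRAP, Atf3 was at 5.82 to 13.6 CPM in home cage and 2.68 to 11.2 CPM in run mice, a difference of -0.36 ± 0.28. Its log2 ratio had a median of 3.80 in home cage mice and 1.73 in run mice and was lower by 2.11 ± 0.52 (95% interval -3.20 to -1.02 for the difference). In CPM, Atf3 was more abundant in TRAP than in lysate in all 14 mice. Pdgfb, the growth factor that recruits pericytes, was at a median of 46.7 and 42.9 CPM in TRAP and of 10.7 and 14.4 CPM in lysate, and its ratio difference was -0.72 ± 0.17. Cebpa, a transcription factor of myeloid identity, differed by -0.68 ± 0.18, with lysate medians of 0.944 CPM in home cage and 1.86 CPM in run mice. Bcl2l1, the apoptosis inhibitor Bcl-xL, differed by -0.51 ± 0.14. Srl, which encodes the calcium-binding protein sarcalumenin, showed the other pattern. Its lysate level was 3.04 to 8.66 CPM in home cage and 5.03 to 7.45 CPM in run mice, while its TRAP level was at a median of 8.03 CPM and 3.76 CPM, and the ratios of -0.18 to 0.81 and -1.75 to -0.33 did not overlap. An antisense gene, Gm45091, overlaps Cebpa, and counts without strand cannot separate the pair.

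**Figure D2:**
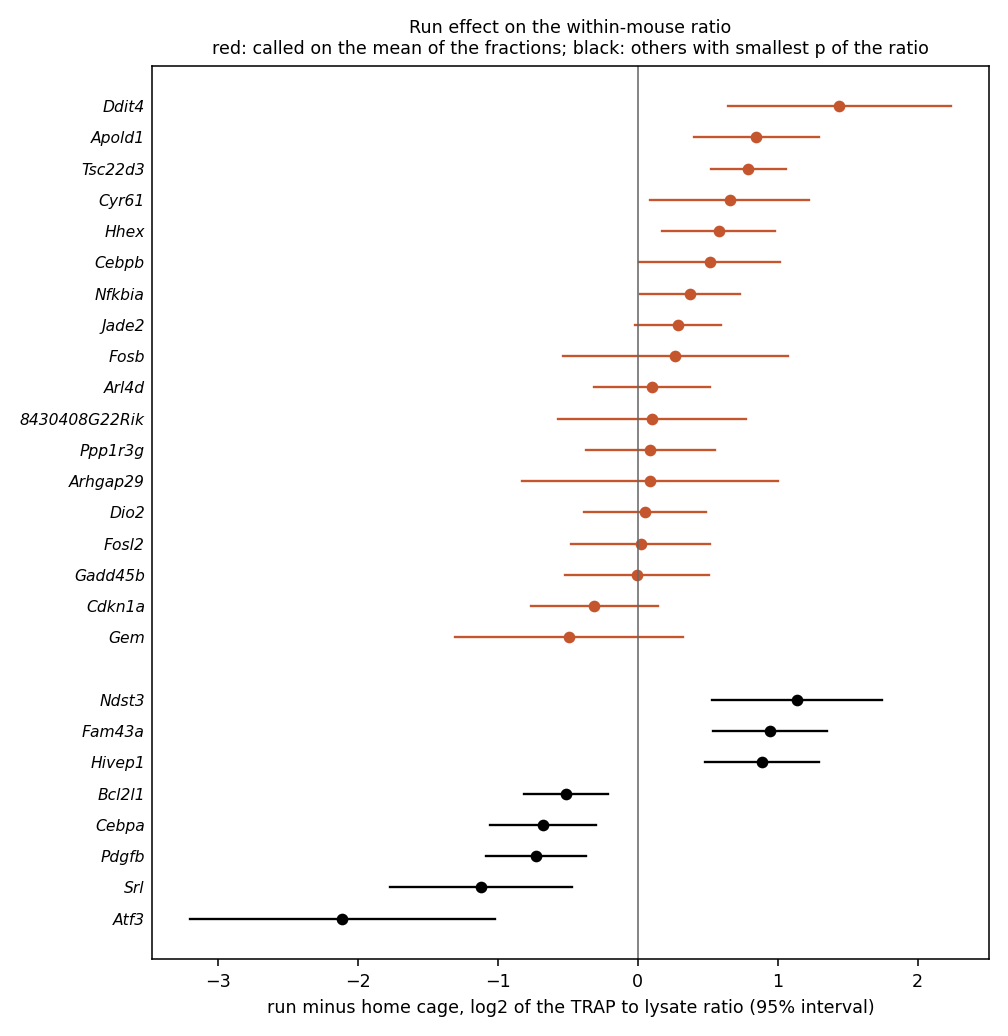
Run minus home cage difference of the log2 TRAP to lysate ratio with its 95% interval from edgeR, for 18 genes called on the mean of both fractions (red) and for 8 other genes with the smallest p of the ratio (black). Among the 18, intervals of 11 include 0, and Tsc22d3 has the narrowest interval of those away from 0, 0.52 to 1.06.

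Changes in both fractions were looked for with the mean of the log2 CPM of both libraries of a mouse (limma, 7 against 7 mice). A change in 1 fraction alone also moves this mean, so that a call is not a test of a shared change. Running was followed by a rise in 17 genes (0.134% of those tested) and a fall in 2 (0.0157%), while 48.8% of all genes had a difference above 0. All 19 had the same sign in TRAP and in lysate, which their choice by the mean favours. For 11 of the 17 that rose, the interval of the ratio included 0, and for 10 it lay within 1 of 0. The ratio was above 0 in 13 of the 17 and had an unadjusted p under 0.05 in 6. Replicate spread was wider in TRAP than in lysate (median residual SD 0.331 and 0.241 on the log2 scale), so that the choice of genes by their mean gives more room to large values in TRAP, and the count of 13 is a description. Called within a single fraction, 5 of the 17 passed in TRAP alone, 6 in lysate alone, 6 in neither and 0 in both.

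**Figure D3:**
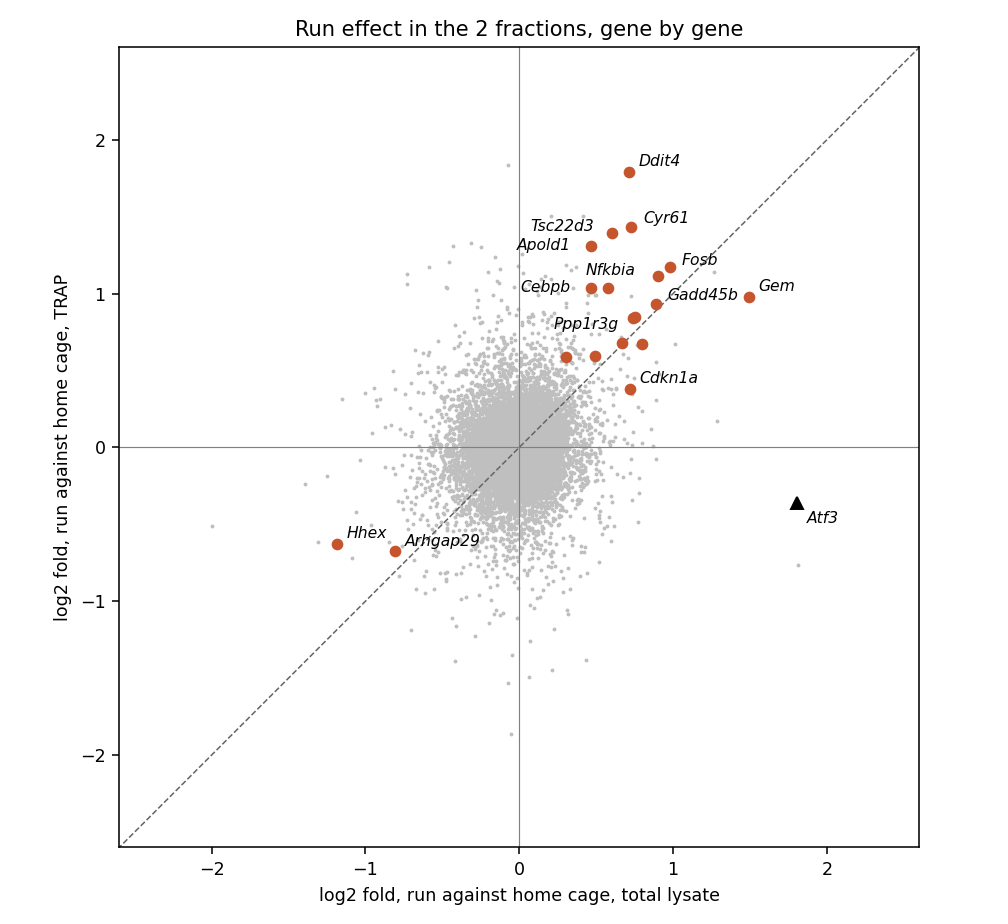
Log2 fold of run against home cage in total lysate (x axis) and in TRAP (y axis) for 12728 genes in grey, with the 19 genes called on the mean of both fractions in red and Atf3 as a black triangle; the dashed line marks equal effects. The red points lie in the quadrants of equal sign, Ddit4 (1.79 in TRAP, 0.71 in lysate) and Tsc22d3 (1.39 and 0.60) above the line, Gem (0.98 and 1.49) below it and Gadd45b (0.93 and 0.89) on it.

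Of the 5 glucocorticoid-responsive genes among the rises on the mean, Tsc22d3, Ddit4, Nfkbia and Cebpb had larger values in TRAP. Cdkn1a (0.38 in TRAP, 0.72 in lysate) had the larger value in lysate. No difference between the fractions passed the test. Tsc22d3 rose by 1.02 ± 0.15 (SE) on the mean (adjusted p = 0.00711). Ddit4, which restrains mTORC1 and responds to stress and glucocorticoids (chromosome 10, 59949669 to 59951834, minus strand), ran from 4.91 through 15.0 to 37.5 CPM in home cage TRAP and from 39.5 through 53.8 to 77.6 CPM in run TRAP. All run mice were therefore above all home cage mice in TRAP. In lysate it lay at 3.13 to 6.88 CPM and 2.02 to 12.2 CPM, with overlap, and the lowest of all 14 lysate values came from a run mouse. Its mean rose by 1.32 ± 0.25 (adjusted p = 0.0305), and its ratio difference was 1.44 ± 0.38 (interval 0.64 to 2.24, adjusted p = 0.997). Nfkbia, the NF-kB inhibitor, and Cebpb, a transcription factor of acute responses, rose on the mean by 0.78 ± 0.12 and 0.72 ± 0.12, with ratio differences of 0.38 ± 0.17 and 0.51 ± 0.24. A single run mouse, labelled Female2 of cohort 2, gave the highest Nfkbia level in TRAP, 715 CPM, beside a home cage maximum of 225 CPM. Without the 2 mice of doubtful label the ratio differences of Nfkbia and Cebpb were 0.20 and 0.25. Fkbp5, a chaperone that restrains the glucocorticoid receptor, did not pass on the mean (0.72 ± 0.15, adjusted p = 0.0828) and had a ratio difference of 0.58 ± 0.16.

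For most activity and stress genes among the rises the interval of the ratio included 0. Gadd45b, a stress and activity gene linked to DNA demethylation, ran from 3.66 through 4.44 to 7.38 CPM in home cage TRAP and from 6.61 through 8.15 to 20.8 CPM in run TRAP. In lysate it ran from 5.09 through 6.40 to 15.5 CPM and from 9.99 through 16.3 to 22.9 CPM. The groups overlapped in both fractions when the cohorts were pooled. Gadd45b rose on the mean by 0.88 ± 0.13 (adjusted p = 0.00711) with a ratio difference of -0.01 ± 0.25, so that a differential response above 0.51 or below -0.52 is outside the 95% interval. Cdkn1a, the cell cycle inhibitor p21, rose by 0.56 ± 0.09 with a ratio difference of -0.31 ± 0.22, and Gem, a small GTPase that dampens calcium channels, by 1.23 ± 0.23 with -0.49 ± 0.39. Run and home cage lysates did not overlap for Gem, at 0.898 to 1.91 CPM and 2.33 to 5.91 CPM. Arl4d, an Arf-like GTPase, rose by 0.80 ± 0.14 and Ppp1r3g, a subunit that directs a phosphatase to glycogen, by 0.80 ± 0.13, with ratio differences of 0.10 ± 0.20 and 0.09 ± 0.22. Fosl2 rose by 0.68 ± 0.13, Fosb by 1.08 ± 0.20 and Dio2, the enzyme that activates thyroid hormone, by 0.53 ± 0.10. The matricellular protein gene Cyr61 rose by 1.08 ± 0.19 and had the largest ratio difference among the immediate early genes that rose, 0.66 ± 0.27. Jade2 and 1 unnamed gene model were also among the 17.

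The 2 genes that fell were Hhex and Arhgap29. Hhex, a homeobox factor of endothelium and myeloid cells, was at a median of 122 CPM in home cage TRAP and 78.6 CPM in run TRAP, and at 1.82 and 0.757 CPM in lysate. By library totals its lysate averaged 2.01 CPM in home cage and 0.867 CPM in run mice, so that it entered the comparison only through the home cage group. Its mean fell by 0.92 ± 0.17 (difference -0.92, adjusted p = 0.0305), and its ratio difference was 0.58 ± 0.19 with a steeper difference in lysate (-1.18 ± 0.28) than in TRAP (-0.63 ± 0.15). Arhgap29, a GTPase activator of vessels, fell by 0.76 ± 0.14 on the mean, with -0.68 ± 0.27 in TRAP and -0.81 ± 0.21 in lysate. None of the 11 tested endothelial markers was called on the mean, and 1 of the 11 had a mean difference above 0, against 48.8% of all genes, with a list median of -0.34. Their summed level ran from 164 to 653 CPM in home cage TRAP, 197 to 509 CPM in run TRAP, 66.9 to 173 CPM in home cage lysate and 52.1 to 144 CPM in run lysate. The part of vessel content in these differences was not tested.

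Of the 19 genes called on the mean, Apold1, Tsc22d3, Gadd45b, Nfkbia and Cdkn1a stayed called in all 14 fits that left out 1 mouse. Ppp1r3g stayed called in 13 of these fits, Cebpb in 11, Arl4d in 9, Cyr61 in 8 and Fosb in 5. Hhex and Arhgap29 did so in 4, Ddit4, Gem and Fosl2 in 3, and Dio2 in 1. Without the 2 mice of doubtful sex label 5 genes were called, namely Apold1, Tsc22d3, Gadd45b, Nfkbia and Dio2. Both are run mice of cohort 2, so that this fit holds fewer run mice, and the part of that in the lost calls was not tested. With no cohort term, or within either cohort alone, 0 genes were called. Opposite-strand partners overlap Cebpb (Tmem189), Cdkn1a and Dio2, whose counts may hold reads of both strands.

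For the 17 genes that rose on the mean of both fractions, promoter sequences were read from RefSeq (GRCm38.p6). Windows ran from 250 bases before to 50 after the annotated start, in 5′ to 3′ direction of the gene. An entry was matched for 14 of the 17, with Cyr61 listed under its newer symbol Ccn1. The cyclic AMP response element TGACGTCA was found in 2 of the 14, Arl4d and Dio2, and in 2.03% of 27025 genes with a window. Its shorter form TGACG, searched on both strands and contained in the full element, was in 8 of the 14 (Apold1, Tsc22d3, Ppp1r3g, Cebpb, Arl4d, Cyr61, Fosb and Dio2) and in 23.0% of all genes. The short glucocorticoid response element AGAACA, on both strands, was in 1 of the 14, Tsc22d3, and in 21.3% of all. The AP-1 site TGANTCA and the CArG box were in 0 of the 14, against 8.97% and 1.81% of all genes, and an NF-kB site was in 2 of the 14 against 10.7%. A gene counts once if any of its windows holds the letters. Both full elements and 2 short ones are shown, as the 110 bases before the RefSeq start with the element in capitals, together with the Tsc22d3 stretch that carries the short glucocorticoid element. Capitals mark matching letters and not bound sites.
Arl4d, chr11:101665431-101665540, plus strand: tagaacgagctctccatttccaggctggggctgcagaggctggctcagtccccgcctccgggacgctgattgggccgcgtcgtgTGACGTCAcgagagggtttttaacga
Dio2, chr12:90739039-90739148, minus strand: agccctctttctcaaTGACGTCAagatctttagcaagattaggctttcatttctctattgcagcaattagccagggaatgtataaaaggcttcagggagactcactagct
Apold1, chr6:134981891-134982000, plus strand: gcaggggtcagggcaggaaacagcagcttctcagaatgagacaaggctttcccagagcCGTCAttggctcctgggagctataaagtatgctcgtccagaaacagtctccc
Cyr61, chr3:145649986-145650095, minus strand: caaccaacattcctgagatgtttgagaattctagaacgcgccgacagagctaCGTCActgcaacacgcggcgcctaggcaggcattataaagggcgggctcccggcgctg
Tsc22d3, chrX:140600673-140600732, minus strand: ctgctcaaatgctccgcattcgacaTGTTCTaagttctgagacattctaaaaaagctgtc
The element begins 26 bases before the start in Arl4d, 95 in Dio2, 52 in Apold1 and 58 in Cyr61, and the short element of Tsc22d3 185 bases before the start of 1 of its 3 RefSeq windows.

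Within single fractions 6 genes passed in TRAP (0.0471%) and 8 in lysate (0.0629%), all of them higher after running. Without the 2 mice of doubtful label TRAP called 3, of which Apold1 and Tsc22d3 were shared, and lysate called 0 (781 at an unadjusted p under 0.05, smallest adjusted p 0.0881). In that setting Tagap and Nfkbia had an adjusted p of 0.0994 and Ddit4 of 0.145 in TRAP, and Arl4d of 0.156 and Zfp189 of 0.369 in lysate. With all mice, TRAP called Apold1, Tsc22d3, Ddit4, Nfkbia, Tagap and 1 unnamed model. Tagap, a GTPase activator of immune cells, ran from 22.5 through 26.1 to 46.2 CPM in home cage TRAP and from 52.5 through 55.6 to 75.3 CPM in run TRAP, with no overlap. In lysate it stayed between 0.172 and 2.32 CPM over all mice. By library totals it averaged 0.810 CPM in home cage and 1.31 CPM in run lysate, so that it met the minimum only through the run group. The ratio difference of 0.44 ± 0.39 had an interval of -0.38 to 1.25. A response restricted to the ribosomes is therefore not separated from a shared one for Tagap. An antisense transcript, E430024P14Rik, overlaps it. Among those called in lysate were Gadd45b, Ppp1r3g, Gem, Cdkn1a, Arl4d, Atf3 and Zfp189, of which Atf3 met the minimum in lysate only through the run group. Zfp189, a zinc finger repressor expressed in neurons, was at a median of 11.3 CPM in home cage lysate and 26.6 CPM in run lysate, and at 10.2 and 11.6 CPM in TRAP. Its ratio difference was -0.72 ± 0.30 and came to -0.33 without the 2 mice of doubtful label. A call in 1 fraction and none in the other does not show that the fractions differed, and no gene called in either passed the test of the ratio. Across the 12728 genes the run effects in TRAP and lysate correlated with Pearson's r of 0.14, given as a description, and 54.4% of genes had the same sign in both.

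Gene lists, chosen with earlier results of these data known, were described by how many tested members differed. No list had a member called on the ratio. Among 24 tested glucocorticoid-responsive genes, 15 had a ratio difference above 0, against 44.9% of all genes, with a median of 0.17 (range -0.64 to 1.55). An unadjusted p under 0.05 was reached by 7 of the 24 with a higher ratio, against 1.79% of all genes, and by 1 with a lower ratio, against 2.28%. On the mean 5 of the 24 rose, against 0.134% of all genes. The mean difference was above 0 in 23, against 48.8% of all genes, with a median of 0.53. The genes with a higher ratio were Tsc22d3, Ddit4, Fkbp5, Nfkbia and Cebpb and, named after their values were seen, the clock gene Per1 (0.55 ± 0.25) and the hypoxia factor Hif3a (1.55 ± 0.70). The lower one, also named afterwards, was the kinase gene Sgk1. Sgk1 averaged 135 ± 14.4 CPM (SD, n = 7) in home cage TRAP, 166 ± 55.3 in run TRAP, 92.0 ± 36.5 in home cage lysate and 161 ± 29.2 in run lysate, and its ratio difference was -0.64 ± 0.20. Members of this list thus lay on both sides of 0.

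Of 26 immediate early genes tested, 14 had a ratio difference above 0, against 44.9% of all genes, and the median was 0.02. At an unadjusted p under 0.05, 1 was higher (against 1.79% of all genes) and 3 were lower (against 2.28%). On the mean 21 of 26 were above 0, against 48.8% of all genes, with a median of 0.30, and 3 rose (Cyr61, Fosb and Fosl2), against 0.134% of all genes. Atf3 was 1 of the lower ratios, and it met the minimum level in lysate only through the run group, where it was high. The others, named after their values were seen, were Junb (-0.58 ± 0.17) and Ier3 (-0.48 ± 0.22). Junb, an AP-1 subunit, averaged 96.2 ± 33.9 CPM (SD, n = 7) and 91.3 ± 32.1 CPM in TRAP and 56.0 ± 25.0 and 76.7 ± 27.0 CPM in lysate, home cage first. Fos had a ratio difference of 0.30 ± 0.20, Arc, an activity-regulated cytoskeletal protein of synapses, 0.02 ± 0.19, and Egr1 0.20 ± 0.14, all with intervals that include 0. All 3 were less abundant in TRAP than in lysate (mean log2 ratio -1.52 for Fos, -1.73 for Arc and -1.67 for Egr1), and none was called on the mean. Npas4 and Rgs1 were under the level required in one of the fractions and were not tested. Of 22 late activity-regulated genes, 8 had a ratio difference above 0 (median -0.06), against 44.9% of all genes. On the mean 3 rose, Gadd45b, Gem and Arl4d, against 0.134% of all genes.

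Stress, translation and metabolic lists had no member called on the ratio. Their counts above 0 stand beside 44.9% of all genes, and beside 33.5% of the genes at least 2-fold higher in TRAP. In the unfolded protein and integrated stress response, 4 of 19 had a ratio difference above 0, the median was -0.14, and 6 were lower at an unadjusted p under 0.05, against 2.28% of all genes. They were the chaperone Calr (-0.36 ± 0.13) and, named after their values were seen, Pdia4 (-0.43 ± 0.17), Hspa5 (-0.32 ± 0.14), Manf (-0.37 ± 0.15), Sdf2l1 (-0.40 ± 0.17) and Sesn2 (-0.66 ± 0.26). Manf, a secreted endoplasmic reticulum stress protein, averaged 119 ± 10.2 CPM in home cage TRAP and 119 ± 22.4 in run TRAP (SD, n = 7), beside 44.7 ± 7.43 and 56.9 ± 10.7 in lysate. The list median was -0.05 in TRAP and 0.14 in lysate. Of 20 heat shock and chaperone genes, 10 had a ratio difference above 0, the median was -0.02, and 0 had an unadjusted p under 0.05. Among 43 translation initiation and elongation factors, 12 were above 0 (median -0.07). At an unadjusted p under 0.05, 4 were lower, against 2.28% of all genes, with the helicase Eif4a1 at -0.40 ± 0.14. Of 26 lysosomal genes, 3 were above 0 (median -0.11), and Lgmn, a lysosomal protease of microglia, was at -0.40 ± 0.19. Slc7a5, a transporter of large neutral amino acids, was at -0.66 ± 0.21 in a list of 24 whose median was -0.05. Medians of the other metabolic lists were -0.12 in 28 glycolysis and transport genes, -0.08 in 19 sterol synthesis genes, -0.09 in 31 mTORC1 pathway genes and -0.02 in 54 oxidative phosphorylation genes. On the mean, 77 of 78 cytosolic ribosomal protein genes and 49 of 54 oxidative phosphorylation genes had a difference above 0, against 48.8% of all genes. No member of these 2 lists was called on the mean or in a fraction. Genes of a list are not replicates, and whether the lists changed was not tested. Medians of the ribosomal protein genes were 0.17 in TRAP, 0.15 in lysate and 0.04 in the ratio. Their ratio difference was above 0 in 48 of 78, and 0 were called.

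**Figure D4:**
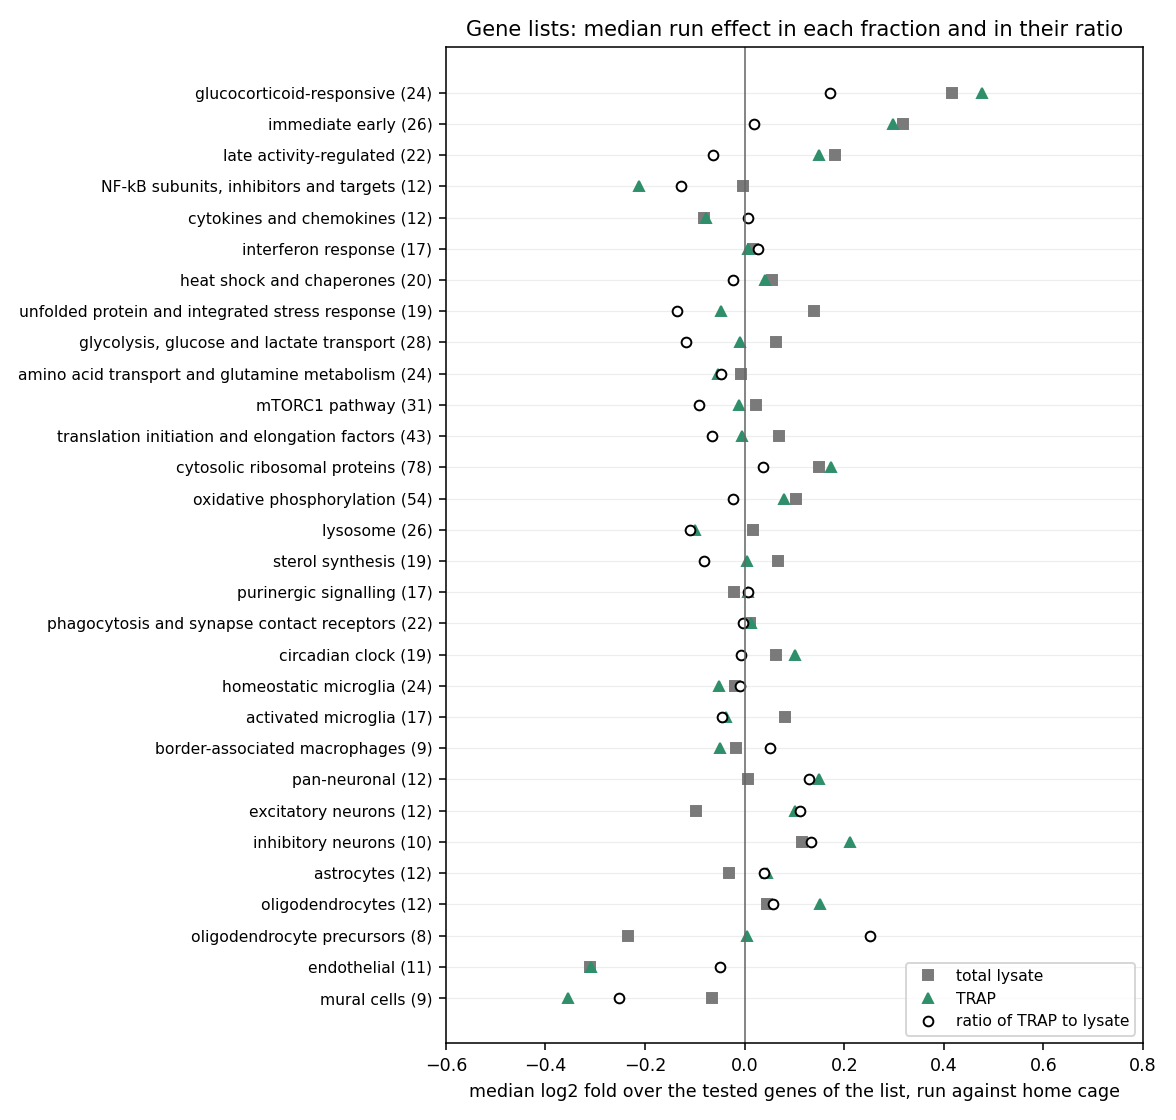
Median log2 fold of run against home cage over the tested genes of 30 lists, in lysate (squares), in TRAP (triangles) and in the TRAP to lysate ratio (open circles), with the number of tested genes in brackets. Glucocorticoid-responsive and immediate early genes had medians of 0.48 and 0.30 in TRAP and 0.42 and 0.32 in lysate, endothelial markers were at -0.31 in both fractions, and ratio medians ran from -0.25 in mural cells to 0.25 in oligodendrocyte precursors.

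Ratio differences of microglial markers lay near 0. None of the 24 homeostatic genes had an unadjusted p under 0.05, the median was -0.01 and the values ran from -0.23 to 0.30. Tmem119 differed by -0.08 ± 0.15 and the purinergic receptor gene P2ry12 by 0.26 ± 0.22. Neuronal markers had ratio medians of 0.13 in 12 pan-neuronal, 0.11 in 12 excitatory and 0.13 in 10 inhibitory genes. The median was 0.09 in all 2791 genes at least 2-fold lower in TRAP. The pan-neuronal gene with the smallest p was Syt1, a vesicle calcium sensor, at 0.27 ± 0.12. Among inhibitory genes it was Gad1, the enzyme of GABA synthesis, at 0.38 ± 0.17. Slc17a7, the vesicular glutamate transporter, was at -0.13 ± 0.23, the astrocyte filament gene Gfap at -0.25 ± 0.22, the myelin gene Mbp at 0.12 ± 0.19 and the endothelial adhesion gene Pecam1 at -0.05 ± 0.27. Among immune lists, 12 NF-kB genes had a median of -0.13, 12 cytokines and chemokines 0.01 and 17 interferon response genes 0.03.

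The ratio difference varied with where a gene was most abundant. In 2541 genes at least 2-fold higher in TRAP the median was -0.09 and 33.5% were above 0. In 7396 genes between the bounds the median was -0.04 with 42.0% above 0, and in 2791 genes at least 2-fold lower in TRAP it was 0.09 with 63.2% above 0. The distance between the average log2 CPM of homeostatic microglia markers and of pan-neuronal markers in TRAP, a measure of purity, was 4.15 ± 0.68 (SD, n = 7) in home cage and 3.99 ± 0.76 in run mice. The run group was thus lower, in the direction of the class difference, by less than these SDs, which also hold the difference between cohorts. In cohort 1 purity was 2.96 to 4.09 in home cage and 2.68 to 3.91 in run mice. In cohort 2 it was 4.70 to 4.81 and 4.58 to 4.80. The part of purity in the class difference was not tested. With this purity as a covariate the Tsc22d3, Ddit4 and Atf3 ratio differences were 0.76, 1.32 and -2.09. None of them passed the edgeR test there (adjusted p = 0.177, 0.991 and 0.991).

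**Figure D5:**
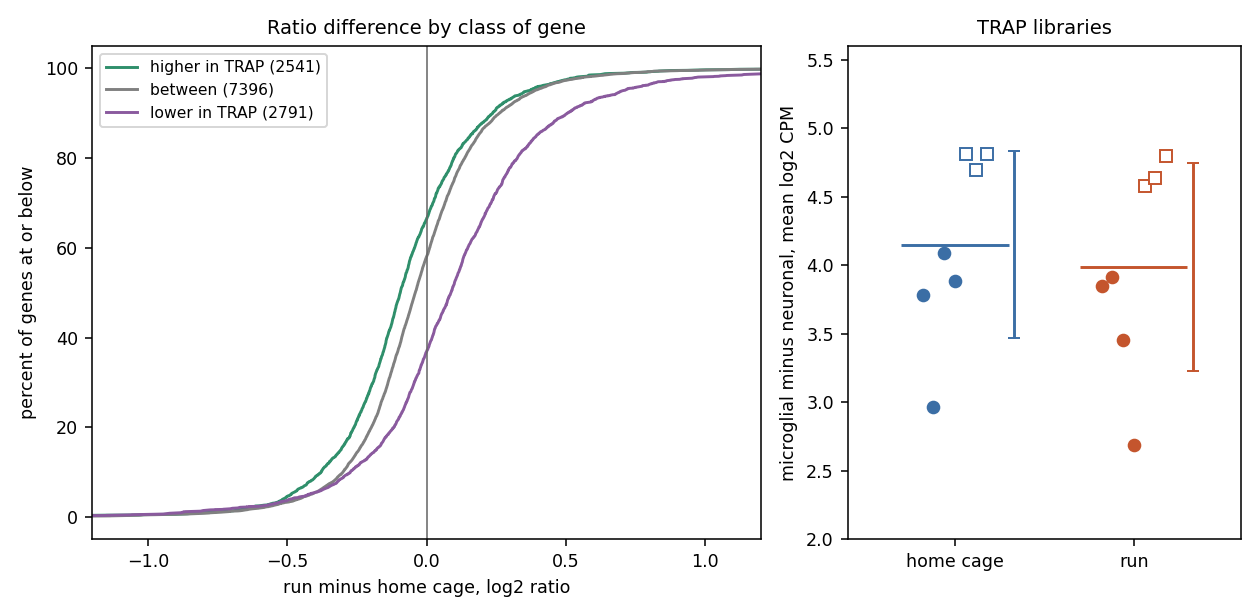
Left, cumulative percent of genes by run minus home cage difference of the log2 ratio, for genes higher in TRAP, between, and lower in TRAP. Right, purity of each TRAP library with the mean (line) and SD (bar beside it), cohort 1 as filled circles and cohort 2 as open squares; curves cross 0 at different heights (33.5% and 63.2% of genes above 0 in the outer classes) and the purity of both groups covers the same span, with cohort 2 above cohort 1.

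Cohorts were compared for the run effect on the ratio, and 0 of 12728 genes (0%) differed at an adjusted p under 0.05, with 309 at an unadjusted p under 0.05 in edgeR. The median half-width of that difference was 0.93. Between cohorts Tsc22d3 differed by -0.52 ± 0.24 (cohort 2 minus cohort 1, unadjusted p = 0.0436). Ratio differences in cohort 1 and cohort 2 alone were 1.5 and 1.38 for Ddit4, 1.19 and 0.65 for Fam43a, 1.08 and 0.56 for Apold1, -2.44 and -1.67 for Atf3, and 0.41 and -0.48 for Fosl2. All but Fosl2 of these had the same sign in both cohorts, which their size in the pooled mice favours. Among other genes called on the mean, the sign was also the same for Cebpb, Cyr61, Fosb, Gem, Hhex and Nfkbia. It differed between cohorts for Cdkn1a, Gadd45b, Ppp1r3g, Arl4d, Dio2 and Arhgap29, whose pooled ratio intervals include 0.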

How the data were processed

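The authors deposited raw counts per gene, whole numbers with no normalisation, for 28 poly(A) libraries (Nextera XT, per the labels' protocols). Per the submitters' processing notes, the build was GRCm38 and the tools included featureCounts, STAR 2.7.7a and DESeq2; the strand setting is not given in the sources used here. Between 68.3% and 75.3% of counts from 1 to 20 were even numbers in each library, so a count may not be 1 independent fragment, and precision is that of the 7 mice per group.

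CPM used TMM factors over all 28 libraries, except in the filter, which used library totals and which 88 tested genes met in a fraction through run mice only and 109 through home cage mice only. edgeR 4.0.16 fitted mouse, fraction, fraction by cohort and fraction by run, and tested the last term. limma 3.58.1 tested the per-mouse mean of log2 CPM (prior count 2) with cohort as covariate. Adjustment was Benjamini-Hochberg over 12728 genes at 0.05. edgeR also compared run and home cage within each fraction and the ratio between cohorts. Alternatives were DESeq2 1.42.0, other scalings, filters, covariates and leaving out mice. The scripts were tested on simulated data.

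Libraries were paired by mouse in their titles. After subtracting group means, the paired libraries of a mouse had correlations across genes of -0.24 to 0.38, with 7 of 14 mice over 0.1. For 10 of 14 mice the TRAP library correlated best with its own lysate among mice of its condition and cohort; the other 4 were all of cohort 2. The median residual SD of the log2 ratio was 0.411, beside 0.425 for unrelated libraries. Named genes were the 5 smallest p per direction for the ratio where fewer were called, those called on the mean or in a fraction, up to 3 per list, and 20 fixed symbols; unnamed models were only counted, and 1 named gene is not reported here. The members and the 32 gene lists were chosen with earlier results of these data known. No pair of libraries in a group agreed within sampling noise (chi-square per degree of freedom of at least 69.6). Gene positions are from GENCODE on GRCm38. Beyond the genotype, tissue and condition given above, nothing in the labels says more of the mice than their number, sex and cohort. The p-values measure the spread between the mice.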

Additional observations from a re-analysis of the deposited data

Results flagged for a closer look

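In 26 named genes, the log2 TRAP to lysate ratio was examined for a single mouse far from the other 6 of its group, in 52 groups of 7 mice. Chance alone sets such a mouse apart in about 1 in 20 groups, and 2 were found. For Fam43a the home cage mouse labelled Female1 of cohort 2 had a ratio of -0.97, and the next lowest was -0.51. For Tagap the run mouse labelled Male2 of cohort 1 had a ratio of 8.19, and the next highest was 6.32, at a lysate level of 0.172 CPM, the lowest of all mice.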

How the results depend on the processing

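The run effect on the ratio gave 4 called genes with DESeq2, 1 in cohort 1 alone, 1 without the 2 mice of doubtful label and 0 to 1 when leaving out each mouse in turn, always Tsc22d3 in the last 3 cases. It gave 0 in every other setting, including 0 with no replicate block, that is, without pairing the libraries of a mouse. The count on the mean of the fractions, 19, became 33 with edgeR and no mouse term, 0 with no cohort term, 0 in cohort 1 and 0 in cohort 2 alone, 5 without the 2 mice, and 5 to 23 over the mice left out. The mean lost calls most without home cage mice Female1 (9) and Male2 (7) of cohort 1 or Female1 (5) and Female2 (6) of cohort 2, and without run mice Male1 (7) and Male2 (9) of cohort 1 or Female2 (7) of cohort 2. In TRAP the 6 calls became 32 with DESeq2, 0 with no cohort term, 0 in either cohort alone, 3 without the 2 mice and 3 to 9 over the mice left out, with 3 without home cage Male2 or run Male1 of cohort 1. In lysate the 8 calls became 39 with DESeq2, 5 with filterByExpr, 0 with no cohort term, 0 in either cohort alone, 0 without the 2 mice and 0 to 15 over the mice left out. Those lysate counts were 1 without home cage Male2 of cohort 1, 0 without Female1 and 15 without Male1 of home cage cohort 2, and 5, 3 and 2 without run mice Female2 and Male1 of cohort 1 and Female2 of cohort 2. Both DESeq2 counts include all genes called by edgeR. The fits of 1 cohort and those that leave out mice hold fewer mice, and the cause of the other shifts was not tested. No called value reversed its direction in the settings tried. Under other scalings and a GC correction the median ratio difference over all genes ran from -0.06 to -0.001. The difference between cohorts stayed at 0 calls. Depth was not varied, and the median half-width of 0.46 sets which differences between the fractions could be seen.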
